A study of Mus musculus with 12 samples.

Results

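The immunoglobulin kappa variable segments were examined in RNA-Seq libraries of megakaryocytes (MKs) from the BM and spleen of mice given saline or sepsis. The group holds every gene of the count table whose GENCODE mouse symbol starts with Igkv and whose biotype is IG_V_gene, which gave 100 of 55536 genes. Mice were on the C57BL/6 background and expressed TdTomato through Pf4-driven Cre, so the reporter marks cells in which the Pf4 promoter was active at some point of their history. Saline or cecal slurry, the sepsis model, was given 5 days before the sort, and mice of both sexes were 8 to 12 weeks old. With 3 libraries for each tissue and treatment there were 4 groups, named here by tissue and treatment as in BM saline, and all 12 libraries share the strain and the Pf4 reporter. Each library pooled 300 sorted cells that were positive for CD45, TdTomato, CD41 and CD42b and negative for lineage markers, and the study also gated out CD138+ cells. The 3 replicates of a group were independent, and the study counted them as mice. Whether a BM and a splenic library with the same replicate number came from 1 mouse was not given in the sources used here.

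In a developing B cell, one Igkv segment is cut and joined to one of the Igkj segments, and the joined exon is spliced to Igkc, the constant exon. Each light chain therefore carries 1 variable segment, and a B cell clone expresses the same joined segment in all of its cells. A mixed population of B cells or plasma cells uses many segments, while RNA from few clones is held by few. The segment encodes the first complementarity-determining regions and the start of the last one, the CDR3, which is completed at the junction.

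The segments lie on chromosome 6 of GRCm38 between positions 67555497 and 70704177, upstream of Igkj and Igkc. They form 20 families, and each has 2 exons, the first for the leader peptide and the second for the variable domain. Of the 100 segments, 38 run in the orientation of Igkj and Igkc and 62 in the opposite one. The exon length was between 338 and 501 bases with a median of 362. Because 49 of the 100 have another Igkv gene whose sequence is at least 95% identical, and the handling of reads that match several genes was not stated, counts of such near copies are uncertain. Igkv2-137 is the 1 segment whose exons overlap another gene, with 60.1% of its exon bases inside Gm42889.

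The germline coding ends of the 9 segments that were the most used in at least 1 library are given because this end separates the dominant segments from each other. Each line holds the last 60 coding bases, 5′ to 3′, from GENCODE release M21 on GRCm38, and the capitals mark the 23 germline CDR3 bases after the last in-frame cysteine codon. They are reference sequences and not the junctions present in these cells.

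Igkv6-15: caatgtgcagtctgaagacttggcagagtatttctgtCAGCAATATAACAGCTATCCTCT

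Igkv10-96: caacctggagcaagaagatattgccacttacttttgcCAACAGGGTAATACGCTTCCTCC

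Igkv9-120: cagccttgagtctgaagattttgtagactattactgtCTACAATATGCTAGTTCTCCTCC

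Igkv14-111: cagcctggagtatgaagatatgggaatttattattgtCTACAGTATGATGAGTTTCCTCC

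Igkv8-24: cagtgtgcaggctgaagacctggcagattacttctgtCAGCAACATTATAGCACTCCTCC

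Igkv14-100: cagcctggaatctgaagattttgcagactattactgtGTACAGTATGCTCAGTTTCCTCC

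Igkv12-41: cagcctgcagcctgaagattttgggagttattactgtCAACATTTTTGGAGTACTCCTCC

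Igkv1-135: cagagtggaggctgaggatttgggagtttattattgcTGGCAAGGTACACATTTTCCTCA

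Igkv19-93: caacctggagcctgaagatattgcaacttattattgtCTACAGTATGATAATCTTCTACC

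The 9 CDR3 ends are all distinct, and the 100 segments together hold 86 distinct ones. On chromosome 6 of GRCm38 these segments lie at chr6:67609713-67610508 (Igkv1-135, plus strand), chr6:68049983-68050456 (Igkv9-120, plus), chr6:68256389-68256869 (Igkv14-111, plus), chr6:68519012-68519477 (Igkv14-100, plus), chr6:68631963-68632442 (Igkv10-96, minus), chr6:68736297-68736780 (Igkv19-93, minus), chr6:69858420-69858884 (Igkv12-41, minus), chr6:70216858-70217421 (Igkv8-24, minus) and chr6:70406469-70406992 (Igkv6-15, minus). Igkv1-135 is the farthest of them from Igkj and Igkv6-15 the nearest. The printed end lies in the second exon in every case.

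The libraries held between 7756762 and 27386184 counts on genes, and the mitochondrial genes took between 2.89% and 4.95% of them. Spleen sepsis 3 stood apart from the other splenic libraries in its immunoglobulin RNA and is named where a value of the group rests on it. The summed level of the 10 MK markers was between 11694 and 47363 CPM in BM and between 1199 and 3529 CPM in spleen. None of the 10, Pf4 and Itga2b included, was at 0 in any library, but some were near it in spleen. Gp1ba had 1, 5 and 1 counts in spleen saline 1, spleen saline 2 and spleen sepsis 2. It had 63, 115 and 247 counts in spleen saline 3, spleen sepsis 1 and spleen sepsis 3. The 10 B cell markers summed to between 56.5 and 283 CPM in BM and between 3155 and 10189 CPM in spleen. The 10 plasma cell markers summed to between 1544 and 4831 CPM in BM and between 8276 and 81206 CPM in spleen, and Jchain, which links secreted IgA and IgM, made up most of that sum in every library. The part of B cells or plasma cells in the sorted pools in the values below was not tested. In pooled RNA, fewer cells that carry a transcript and less of it per cell cannot be told apart.

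Splenic libraries held far more Igkv RNA than BM libraries, with 1 exception. After saline the 100 segments took 1.32%, 0.411% and 0.323% of all counts in the 3 BM libraries and 6.17%, 6.02% and 6.09% in the 3 splenic ones. After sepsis they took 0.427%, 0.123% and 0.464% in BM and 4.28%, 5.49% and 0.207% in spleen. The 5 high splenic libraries were thus all above the 6 BM libraries, whereas spleen sepsis 3 lay within the BM range. Counting error did not blur these shares, since the 95% Wilson interval of spleen sepsis 3 was 0.204% to 0.210%.

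Scaled to CPM, the summed Igkv level was 10637, 3756 and 2699 in BM saline and 3894, 863 and 4000 in BM sepsis. It was 84128, 64100 and 75535 CPM in spleen saline and 60224, 72026 and 2013 CPM in spleen sepsis. The group means were 5697 ± 4310 CPM (SD, n = 3) in BM saline, 2919 ± 1782 CPM in BM sepsis, 74588 ± 10047 CPM in spleen saline and 44754 ± 37483 CPM in spleen sepsis. Without spleen sepsis 3 the last mean was 66125 CPM. Within each tissue the saline and sepsis ranges of the summed CPM overlapped. As a share of all counts they overlapped in BM, while the 3 spleen sepsis libraries were all below the 3 spleen saline libraries.

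**Figure D1:**
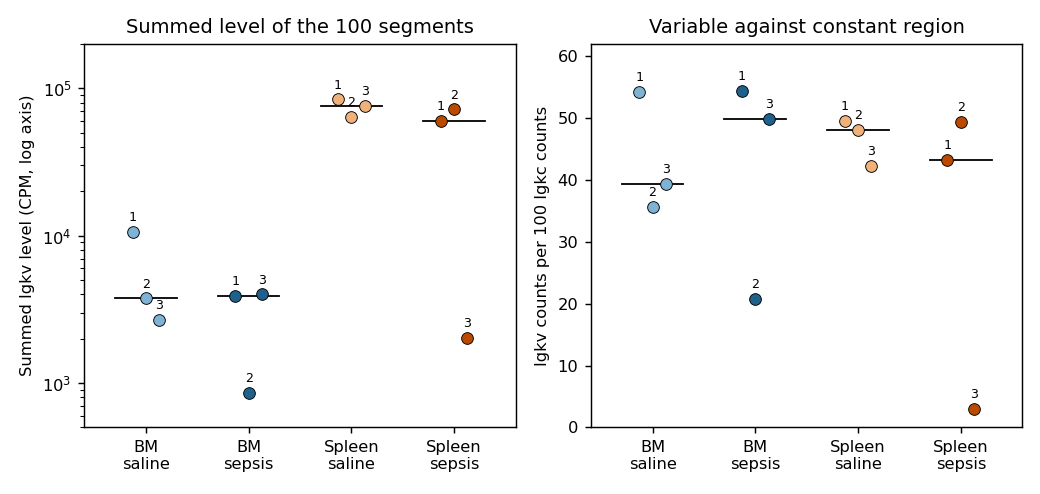
Summed level of the 100 Igkv segments in CPM on a log axis (left) and Igkv counts per 100 Igkc counts (right) in each of the 12 libraries, by group, with points numbered by replicate and a line at the group median. Spleen sepsis 3 lies at 2013 CPM and 2.98 per 100, below the other 5 splenic libraries in both panels.

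Igkc, the constant exon that every kappa chain shares, gives a reference for the segments. The libraries had 54.3, 35.7 and 39.4 Igkv counts per 100 Igkc counts in BM saline and 54.4, 20.8 and 49.9 in BM sepsis. The ratio was 49.6, 48.1 and 42.3 in spleen saline and 43.2, 49.4 and 2.98 in spleen sepsis. The ratio was thus between 20.8 and 54.4 in 11 libraries and lowest in spleen sepsis 3. There Igkc was at 67536 CPM, against 133290 to 178780 CPM in the other splenic libraries, so the constant exon was less reduced than the segments. For the lambda chain, spleen sepsis 3 had 11.4 Iglv counts per 100 Iglc counts and the other splenic libraries 54.5 to 62.8. In BM that ratio was 13.8 in BM sepsis 1, 22.9 in BM sepsis 2 and 47.2 to 76.3 in the other 4. The Igkj genes, which lie between the segments and Igkc, held 1 count in spleen sepsis 3 and 525 to 2923 in the other splenic libraries. In BM they held 0 to 68 counts, but with fewer Igkc counts. Spleen sepsis 3 had its 1 Igkj count beside 695892 Igkc counts. BM sepsis 2 had 0 beside 48696, and the other BM libraries had 8 to 68 beside 63677 to 228687. Relative to Igkc, Igkj was thus lower in spleen sepsis 3 than in every BM library but BM sepsis 2.

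Segment usage is given as the counts of a segment per kilobase of its exons, as a percentage of the same over all 100 segments, so that segments can be compared within a library. BM libraries were each dominated by 1 or 2 segments, and the dominant segment differed from library to library. In BM saline 1, Igkv6-15 alone made up 97.3% of Igkv usage, and the next segment, Igkv9-124, 0.383%. In BM saline 2, usage was shared by Igkv10-96 (44.7%) and Igkv3-10 (41.1%). In BM saline 3, Igkv9-120 held 75.8% and Igkv4-86 12.6%. No segment over 10% of usage was shared by any pair of the 3 BM saline libraries.

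The BM sepsis libraries were also each held by a pair of segments, but some of these recurred. In BM sepsis 1, Igkv14-111 made up 63.9% of usage and Igkv1-135 33.2%. In BM sepsis 2, Igkv8-24 made up 49.4% and Igkv1-135 46.5%. In BM sepsis 3, Igkv14-100 made up 40.7% and Igkv8-24 30.2%. Igkv1-135 was thus prominent in 2 of the 3 libraries and Igkv8-24 in 2 of the 3. In spleen, Igkv1-135 took 5.42% in spleen saline 1 and 16.2%, 4.48% and 9.54% in spleen sepsis 1, 2 and 3. Igkv8-24 took 25.4% in spleen saline 2 and 4.05% in spleen sepsis 2. The prominence of both was thus not particular to BM sepsis.

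Usage in the splenic libraries was spread over more segments. Igkv12-41 (15.3%) and Igkv3-7 (15.2%) led in spleen saline 1, Igkv8-24 (25.4%) and Igkv8-30 (20.0%) in spleen saline 2, and Igkv14-111 (18.2%) and Igkv9-124 (16.9%) in spleen saline 3. After sepsis, Igkv1-135 (16.2%) and Igkv8-30 (9.62%) led in spleen sepsis 1, Igkv19-93 (18.2%) and Igkv8-30 (14.3%) in spleen sepsis 2, and Igkv19-93 (11.6%) and Igkv5-39 (9.58%) in spleen sepsis 3. Igkv19-93 was the most used segment in 2 libraries of one group, a place that no segment held in another group. Over the 12 libraries 9 different segments ranked first, and the 24 first and second places were held by 15 segments.

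**Figure D2:**
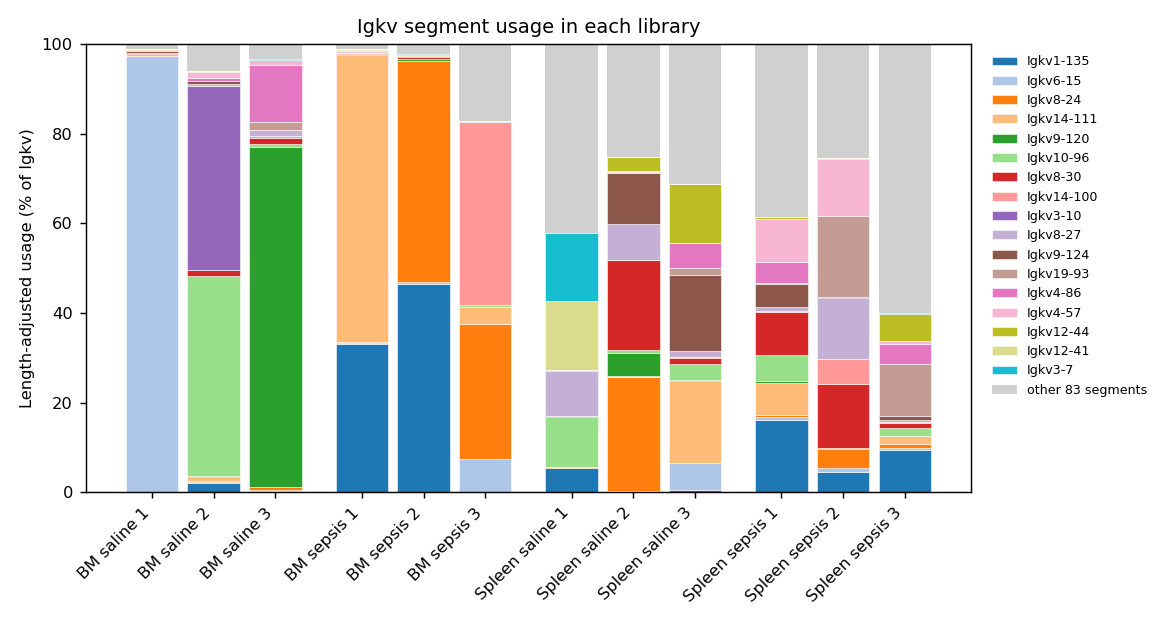
Length-adjusted usage of Igkv segments in each of the 12 libraries, as stacked percentages of all Igkv, with a colour for each of the 17 segments that reached 10% in any library and grey for the other 83. The 2 most used segments fill 70.9% to 97.7% of a BM bar, with up to 97.3% for Igkv6-15 in BM saline 1, while the largest single share in a splenic bar is 25.4%.

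The effective number of segments, the exponential of the Shannon entropy, is the number of equally used segments that would give the same diversity. It was 1.23, 4.33 and 2.89 in BM saline, 2.34, 2.63 and 5.12 in BM sepsis, 11.4, 9.63 and 15.2 in spleen saline and 19.5, 12.1 and 28.1 in spleen sepsis. All 6 splenic libraries were above all 6 BM libraries. Without the 49 segments that have a near copy at 95% identity or more, this order was lost, with 1.08, 12.6 and 4.795 in BM saline, 1.16, 1.36 and 4.29 in BM sepsis, 5.01, 3.95 and 6.03 in spleen saline and 8.64, 7.59 and 13.3 in spleen sepsis. The mean after saline was then 6.16 in BM and 5.00 in spleen, so the direction of the means turned after saline and held after sepsis. The BM saline median, 4.795, stayed below that of spleen saline, 5.01. The segments left out included Igkv10-96 and Igkv3-10, which led in BM saline 2, and Igkv9-120, which led in BM saline 3. Their nearest copies held 28, 101 and 26 counts in those libraries. Also left out were both leaders of spleen saline 1, Igkv12-41 and Igkv3-7, and Igkv9-124, second in spleen saline 3. This step thus removed leading segments of both tissues. With all 100 segments, the means were 2.82 ± 1.55 (SD, n = 3), 3.36 ± 1.53, 12.1 ± 2.85 and 19.9 ± 8.02 in the same order. The saline and sepsis ranges overlapped in both tissues. Leaving out spleen sepsis 3, the most diverse library, gave 15.8 in spleen sepsis. The inverse Simpson index, which weighs the dominant segments more, was between 1.06 and 3.67 in BM and between 7.06 and 19.3 in spleen.

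The 2 most used segments together held between 70.9% and 97.7% of usage in BM and between 21.2% and 45.4% in spleen, so these ranges did not overlap either. The counts behind a leading share were large enough for counting error to be small. The widest 95% Wilson interval of the most used segment's share of Igkv counts, before adjustment for length, was that of BM sepsis 2, 47.4% to 49.4%. Intervals and limits here cover counting error only, since reads were amplified before sequencing.

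**Figure D3:**
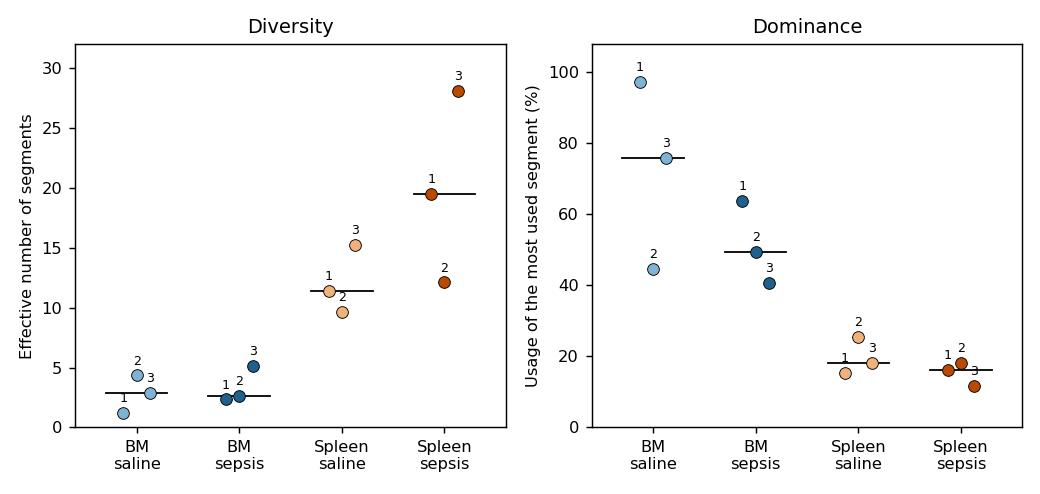
Effective number of Igkv segments (left) and usage of the most used segment in percent (right) in each library, by group, with points numbered by replicate and a line at the group median. All splenic libraries lie above all BM libraries in the left panel (9.63 to 28.1 against 1.23 to 5.12) and below them in the right panel (11.6% to 25.4% against 40.7% to 97.3%).

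Low-level detection of many segments was common to both tissues. Segments with at least 10 counts numbered 40, 50 and 30 in BM saline, 27, 17 and 24 in BM sepsis, 60, 57 and 70 in spleen saline and 82, 66 and 56 in spleen sepsis. These numbers depend on how many Igkv counts a library has. Thinned to the lowest Igkv total, 10145 counts in BM sepsis 2, the expected number of segments with any count was 29.3 to 68.3 in BM and 45.2 to 69.8 in spleen, and these ranges overlapped, whereas those of the effective number did not.

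Leaving out the 2 most used segments of each library, a view chosen after the data had been seen, set the minor segments of the tissues side by side. The other segments summed to 266, 549 and 323 CPM in BM saline and 112, 34.2 and 1171 CPM in BM sepsis. They summed to 59535, 34901 and 49625 CPM in spleen saline and 44230, 48844 and 1601 CPM in spleen sepsis. Their effective number was 6.52 to 25.7 in BM and 10.1 to 29.8 in spleen. It was 18.7 or more in 5 of the 6 BM libraries and in 2 of the 6 splenic ones, and the ranges of the tissues overlapped.

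Among the single segments, 98 of the 100 had a count in at least 1 library. Igkv1-132 and Igkv20-101-2 were at 0 in all 12, and Igkv1-131 and Igkv1-99 never reached 10 counts. Another 10 had at least 10 counts in all 12 libraries, namely Igkv1-110, Igkv1-135, Igkv10-96, Igkv12-41, Igkv14-111, Igkv6-15, Igkv8-24, Igkv8-27, Igkv8-30 and Igkv9-124. At that level, 28 segments were seen in all 6 splenic libraries and 12 in all 6 BM libraries. Usage of 10% or more was reached by 17 segments, by 10 of them in a single library, and 47 segments never reached 1%. Of the 17, 9 reached 10% in BM, 12 in spleen and 4 in both tissues.

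Igkv1-135 had the largest mean usage over the 12 libraries (9.87%), and its level varied over several orders of magnitude within a group. It was at 3.44, 85.2 and 10.7 CPM in BM saline and 1352, 418 and 0.561 CPM in BM sepsis. It was at 4880, 72.8 and 480 CPM in spleen saline and 10280, 3454 and 205 CPM in spleen sepsis. The groups of each tissue overlapped, and so did the tissues. Igkv6-15 came next with 9.47%, nearly all of it from BM saline 1, where it was at 10329 CPM against 2.47 to 289 CPM in the other BM libraries and 5.34 to 4152 CPM in spleen. Igkv8-24 followed with 9.32%, from 5.76, 9.74 and 15.6 CPM in BM saline and 11.9, 411 and 1226 CPM in BM sepsis to 16264 CPM in spleen saline 2.

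The genes whose log2 CPM most resembled that of Igkv1-135 over the 12 libraries were Ifi27 (Pearson's r 0.866), A630001G21Rik (0.854) and Dennd1b (0.828). These coefficients describe 12 libraries that share tissue and treatment, and the genes were picked as the highest of all genes.

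The closest copy of a dominant BM segment was often low in the same library. In BM saline 1, Igkv6-15 had 120205 counts, and Igkv6-23, which is 94.5% identical to it, had 16. In BM saline 2, Igkv3-10 had 15584 counts and Igkv3-5, at 98.3% identity, 101. In these libraries the near copy thus held few of the counts. Copies that were both high also occurred, in both tissues. In BM sepsis 3, Igkv6-15 had 8250 counts and Igkv6-23 had 7711. In spleen sepsis 1, Igkv8-30 had 111146 counts and Igkv8-21, 93.4% identical to it, had 79132.

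Grouped by family, BM usage followed the dominant segments. Igkv6, a family of 9, took 97.3% of usage in BM saline 1 and 14.1% in BM sepsis 3, but at most 0.623% in the other BM libraries. Igkv14, a family of 4, took 63.9% in BM sepsis 1 and 44.5% in BM sepsis 3. In spleen the largest mean usage was that of Igkv8 (20.4%), a family of 10, which ranged from 4.21% to 53.8%. Igkv4, the largest family with 26 segments, had a mean of 15.6% in spleen and 3.07% in BM, and its range was 0.414% to 25.0% in spleen and 0.124% to 14.01% in BM. Family usage thus overlapped between the tissues for all of these.

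Position along the locus was described by dividing the segments into 3 classes by their distance from Igkj1. The 33 nearest segments lie 18.4 to 779 kb from it, the 33 middle ones 822 to 1860 kb and the 34 farthest ones 1887 to 3166 kb. The nearest class took 1.24% to 97.6% of usage in BM (median 44.97%) and 13.5% to 61.0% in spleen (median 28.1%). The farthest class took 1.42% to 98.01% in BM (median 51.5%) and 35.2% to 54.9% in spleen (median 46.6%). The middle class was low in BM, with 0.337% to 14.6% (median 1.997%), and was 3.79% to 36.7% in spleen (median 29.2%). Segments in the orientation of Igkj took 0.910% to 98.1% in BM (median 50.3%) and 25.4% to 48.2% in spleen (median 31.7%). Each BM value was set by the 1 or 2 segments that dominated its library.

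The likeness of usage between libraries was measured with the Morisita-Horn index, which is 0 for no shared segment and 1 for equal usage. The median over pairs of the same BM group was 0.0373 (0.00257 to 0.408, 6 pairs) and over pairs of the same splenic group 0.326 (0.127 to 0.439, 6 pairs). It was 0.00955 between BM saline and BM sepsis (9 pairs), 0.264 between spleen saline and spleen sepsis (9 pairs) and 0.0555 between BM and spleen (36 pairs). The median over the pooled pairs of both BM groups was thus below that between BM and spleen, but the BM groups differed. The BM saline pairs were at 0.00257 to 0.0108. The BM sepsis pairs were at 0.0639, 0.320 and 0.408, all above the median of 0.0555 between BM and spleen. The highest index was that of spleen saline 2 with spleen sepsis 2 (0.455), which shared a replicate number but not a treatment. Without the 2 most used segments of each library the medians were 0.364, 0.292, 0.288, 0.274 and 0.276 in the same order. The pairs share libraries and are not independent, so no test was made.

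**Figure D4:**
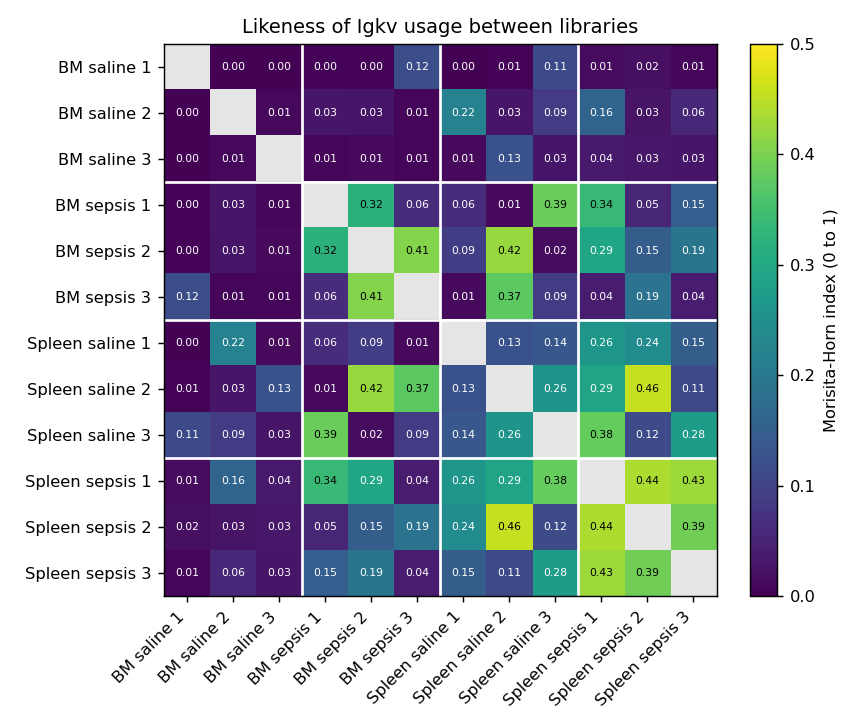
Morisita-Horn index of Igkv usage for each pair of the 12 libraries, from 0 (dark) to 0.5 (light), with white lines between the 4 groups and the diagonal in grey. The BM saline libraries are near 0 with each other, and the highest index (0.455) is that of spleen saline 2 with spleen sepsis 2.

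The tissue difference of each segment was tested with edgeR's quasi-likelihood test, fitted on 20263 genes and adjusted over all of them. Of the 100 segments, 78 passed the filter on low counts. After saline, 17 of the 78 were higher in spleen and 0 lower, which is 21.8% and 0%, against 0.725% higher and 0.523% lower among all genes tested (1.25% in either direction). At an unadjusted p under 0.05 there were 47 segments in either direction, against 2534 of the 20263 genes tested. The median log2 fold change of the 78 was 5.71, beside 0.28 for all genes tested, and 70 of the 78 were above 0. The 22 segments that were not tested reached 10 counts in at most 3 libraries, so these figures describe the tested segments only. A segment near 0 in BM could pass the filter through spleen and could then hardly be called lower there.

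After sepsis, 32 of the 78 were higher in spleen and 0 lower, which is 41.0% and 0%, against 1.18% higher and 0.597% lower among all genes tested (1.78% in either direction). The median log2 fold change was 8.03, beside 0.18 for all genes, and 75 of the 78 were above 0. Some called segments passed the filter on low counts through splenic libraries only. Igkv4-80, Igkv4-72 and Igkv6-14 had at most 8, 5 and 4 counts in any BM library. Such segments could hardly be called lower in spleen, so the split of calls and the median partly reflect how segments entered the test. Without spleen sepsis 3 the calls were 26 after saline and 40 after sepsis, with 85 segments tested. The segments called after both treatments numbered 9, which is 52.9% of the saline list and 28.1% of the sepsis list. Another 8 were called after saline alone and 23 after sepsis alone. Whether a segment's tissue difference itself changed with treatment is given by the interaction below, for which edgeR called none with all libraries, DESeq2 11, and edgeR 1 to 15 when 1 library was left out.

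Igkv14-126 had the smallest p of all segments in both comparisons, although it was a minor segment. It was at 0.773, 1.09 and 0.108 CPM in BM saline and 805, 194 and 102 CPM in spleen saline. After sepsis it was at 0.326, 0.0850 and 0.0702 CPM in BM and 76.5, 40.0 and 31.3 CPM in spleen. All splenic values, those of spleen sepsis 3 included, were above all BM values. Its BM counts were 9, 11 and 1 after saline and 5, 1 and 2 after sepsis, so the size of its fold changes rests on values near 0. The log2 fold change was 9.09 after saline (SE 1.11, edgeR adjusted p = 0.00053) and 8.22 after sepsis (SE 1.10, edgeR adjusted p = 0.000336). It was called under all 20 alternatives of each comparison, with adjusted p of at most 0.0106 and 0.0102.

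Igkv1-110 was used at 2.23% to 8.76% in every splenic library and at most at 0.815% in every BM library. It was at 14.4, 21.7 and 24.7 CPM in BM saline and 7743, 5017 and 3403 CPM in spleen saline. After sepsis it was at 8.61, 1.70 and 2.28 CPM in BM and 2220, 6867 and 48.8 CPM in spleen. Spleen sepsis 3 was again the lowest splenic library, but still above all BM libraries. The log2 fold change was 8.05 after saline (SE 1.23, edgeR adjusted p = 0.00193) and 9.50 after sepsis (SE 1.30, edgeR adjusted p = 0.000415). Limma-voom did not call it (adjusted p = 0.147 and 0.238), and the other 19 alternatives of each comparison did.

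Igkv4-91, Igkv10-94 and Igkv2-109 were also called after both treatments. Igkv4-91 was at 0.0351 to 2.29 CPM in BM and 20.2 to 206 CPM in spleen, with log2 fold changes of 5.87 after saline (edgeR adjusted p = 0.0156) and 8.30 after sepsis (edgeR adjusted p = 0.00176). Igkv10-94 was at 0.175 to 2.78 CPM in BM and 2.84 to 2517 CPM in spleen. Its log2 fold changes were 9.07 (edgeR adjusted p = 0.0163) and 6.67 (edgeR adjusted p = 0.0454), and spleen saline 2 carried most of the first, which was 4.19 with an edgeR adjusted p of 0.113 without it. The sepsis call of Igkv10-94 was lost with library size alone (edgeR adjusted p = 0.0603), with 10 counts required in 6 libraries (0.0707) and with limma-voom (0.113), and limma-voom did not call it after saline (0.285). Igkv2-109 was at 0 to 1.46 CPM in BM and 2.24 to 263 CPM in spleen, with log2 fold changes of 7.87 (edgeR adjusted p = 0.0163) and 6.31 (edgeR adjusted p = 0.0355). The second was 6.04 with an edgeR adjusted p of 0.0517 without BM sepsis 2 and 6.26 with 0.0528 without spleen saline 3, and was not called with library size alone (0.0653) or limma-voom (0.0652).

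Those 5 segments and Igkv12-89 were the 6 of the 78 whose 6 splenic values were all above their 6 BM values, which is 7.69% against 1.87% of all genes tested, and 0 had them all below, against 2.56%. After saline alone, 22 of the 78 had all 3 splenic values above all 3 BM values and 1 had them below, against 7.0% and 11.3% of all genes. After sepsis alone, 40 had them above and 0 below, against 7.02% and 11% of all genes.

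Some of the largest fold changes rested on single libraries. Igkv12-41 was at 12127, 22.5 and 1.502 CPM in spleen saline and 2.48 to 3.18 CPM in BM saline, so that the group means differed while the ranges overlapped. Its log2 fold change was 10.5 (SE 2.30, edgeR adjusted p = 0.0264), and 1.93 with an edgeR adjusted p of 0.517 without spleen saline 1. Igkv3-7 was at 12466, 5.28 and 0.644 CPM in spleen saline and 1.29 to 3.23 CPM in BM saline, with a log2 fold change of 10.8 (SE 2.51, edgeR adjusted p = 0.0373) that was 0.19 with an edgeR adjusted p of 0.998 without spleen saline 1. Both calls thus rested on spleen saline 1.

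Large fold changes after sepsis included those of Igkv8-21, Igkv19-93 and Igkv4-57. Igkv8-21, named after its values had been seen, was at 4068, 91.7 and 4.95 CPM in spleen sepsis and 0 to 0.196 CPM in BM sepsis, a log2 fold change of 13.996 (SE 2.77, edgeR adjusted p = 0.0103). Igkv19-93 was at 129, 12903 and 230 CPM in spleen sepsis and 0.170 to 0.391 CPM in BM sepsis, a log2 fold change of 13.9 (SE 2.20, edgeR adjusted p = 0.00166). Igkv4-57 was at 5373, 8730 and 10.1 CPM in spleen sepsis and 0.0850 to 1.11 CPM in BM sepsis, a log2 fold change of 13.3 (SE 2.13, edgeR adjusted p = 0.0018). All splenic values were above all BM values after sepsis for the 3 segments. Their counts in BM sepsis were 3, 0 and 1 for Igkv8-21, 6, 2 and 7 for Igkv19-93 and 17, 1 and 5 for Igkv4-57. The size of these fold changes thus rests on BM values near 0. Igkv8-30, second in 3 splenic libraries, and Igkv9-124, second in spleen saline 3, were called after both treatments, with log2 fold changes of 7.18 and 9.92 for Igkv8-30 and 8.04 and 8.89 for Igkv9-124. Without spleen saline 2, Igkv8-30 was at 4.12 after saline with an edgeR adjusted p of 0.0766. With at least 10 counts required in 6 libraries, neither was called after saline (edgeR adjusted p = 0.0564 for both), nor did limma-voom call them (adjusted p = 0.595 and 0.397). Limma-voom called none of Igkv19-93, Igkv4-57, Igkv8-30 and Igkv9-124 after sepsis (adjusted p = 0.462 to 0.534).

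The leading segments of BM were not called lower in spleen with all libraries and the filter on low counts. Igkv6-15 had a log2 fold change of -1.24 after saline (SE 1.996, edgeR adjusted p = 0.881), and without BM saline 1, the library it dominated, 8.25 (edgeR adjusted p = 0.0332). Igkv3-10 had a log2 fold change of -5.56 (SE 2.08, edgeR adjusted p = 0.299), from 0.516, 1549 and 0.431 CPM in BM saline and 10.5, 1.40 and 21.03 CPM in spleen saline. It was called lower without BM saline 1 (-6.17, edgeR adjusted p = 0.0453), BM saline 3 (-6.17, 0.0178), BM sepsis 1 (-5.58, 0.0377) or BM sepsis 3 (-5.58, 0.0418) and with no filter on low counts (-5.60, 7.3e-09). Without BM saline 2, the library in which it was high, it was at 4.44 (edgeR adjusted p = 0.555). Igkv9-120, at 2018 CPM in BM saline 3 and 2.32 to 4.97 CPM in the other BM saline libraries, had a log2 fold change of 0.76 (edgeR adjusted p = 0.923). Igkv14-111 and Igkv8-24, which led in BM sepsis, had log2 fold changes of 0.77 and 0.95 after sepsis (edgeR adjusted p = 0.923 and 0.881).

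**Figure D5:**
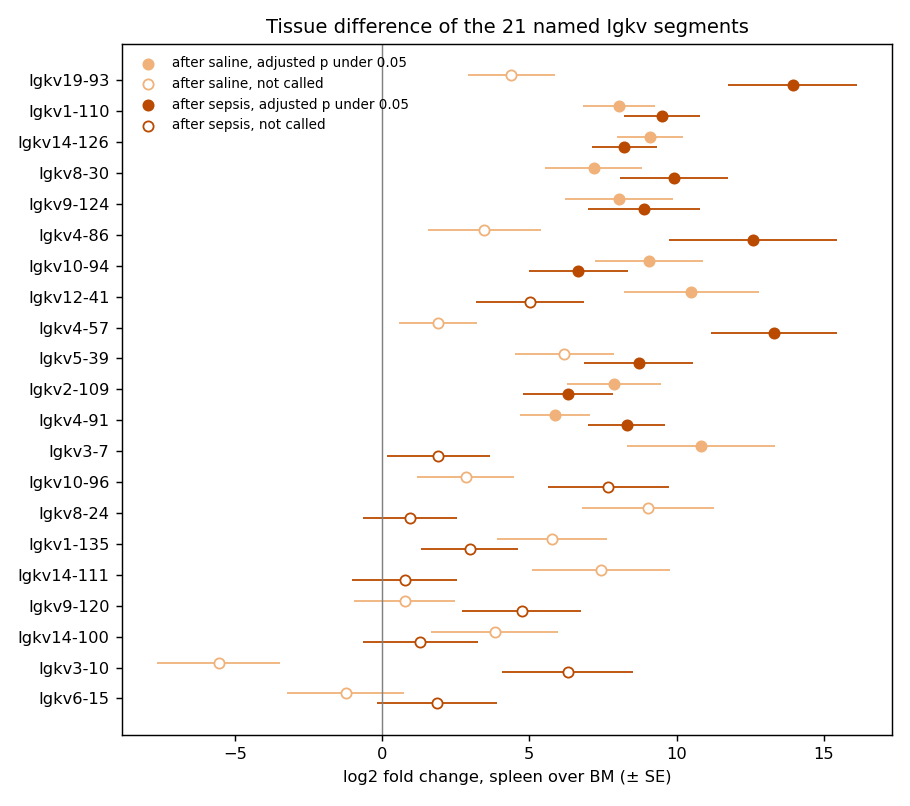
Log2 fold change of spleen over BM with its SE for the 21 named Igkv segments, after saline (light) and after sepsis (dark), where filled points have an edgeR adjusted p under 0.05 and open points do not. Igkv14-126 and Igkv1-110 are filled after both treatments, and no filled point lies below 0.

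Sepsis against saline gave no calls among the segments in either tissue. In BM, 0 of the 78 were called by edgeR, as were 0 of all genes tested (0%). An unadjusted p under 0.05 was found for 34 of the 78 and for 717 of the 20263 genes tested. DESeq2 called 0 segments higher and 5 lower, against 82 and 126 of all genes, and limma-voom called 0. The median log2 fold change was -2.40, beside -0.08 for all genes. All 3 sepsis values were below all 3 saline values for 13 of the 78 and above for 0, which is 16.7% and 0%, against 4.16% and 4.79% of all genes tested. Igkv1-110 was among the 13, with 14.4, 21.7 and 24.7 CPM after saline and 8.61, 1.70 and 2.28 CPM after sepsis. Igkv19-93 was another, with 14.6, 1.39 and 48.1 CPM after saline and 0.391, 0.170 and 0.246 CPM after sepsis (log2 fold change -6.25, SE 1.68, edgeR adjusted p = 1).

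In spleen, edgeR called 0 of the 78, against 0.158% of all genes tested (0.0592% higher and 0.0987% lower). An unadjusted p under 0.05 was found for 31 of the 78 and for 2649 of the 20263 genes tested. DESeq2 called 11 segments (6 higher and 5 lower), against 341 higher and 654 lower among all genes, and limma-voom called 0. Leaving out any 1 library, edgeR called 2 to 17, in both directions for 8 of the 12 libraries left out, with 8 higher and 9 lower without BM sepsis 1, 4 higher and 0 lower without spleen sepsis 3, and 0 higher and 4 lower without spleen saline 2. All 3 sepsis values were above all 3 saline values for 4 of the 78 and below for 6, against 4.95% and 4.51% of all genes. Igkv5-39, second in spleen sepsis 3, was among the 4, with 32.7, 34.6 and 0.644 CPM after saline and 43.2, 56.6 and 181 CPM after sepsis. Igkv14-126 was among the 6. The tissue by sepsis interaction called 0 of the 78 (0% of all genes), with 30 at an unadjusted p under 0.05, against 1556 of all genes. For it, DESeq2 called 11 segments (10 positive and 1 negative), against 205 and 290 of all genes, and limma-voom called 0.

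Some other genes of the antibody pathway were also higher in spleen. Of 45 such genes, 41 were tested, and 15 were higher in spleen after saline and 19 after sepsis, with none lower, against 0.725% and 1.18% of all genes tested. Among the chain genes, Igkc was higher by a log2 fold change of 3.70 after saline (SE 0.46, edgeR adjusted p = 0.00053) and 4.19 after sepsis (SE 0.47, edgeR adjusted p = 8.2e-05). The lambda chain, the alternative light chain, had 6 of 9 tested genes higher after saline and 7 of 9 after sepsis. Igkc made up 92.1% to 97.7% of Igkc and Iglc counts in BM and 66.6% to 88.5% in spleen, so the lambda share was larger in every splenic library.

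Of the transcription factors and coactivators of light chain genes, 4 of 8 were higher after saline and 5 of 8 after sepsis, among them Pou2af1, an octamer coactivator (log2 fold change 4.72 and 5.71), and Irf4 (6.52 and 4.78), which acts at the kappa enhancers. Of 11 genes of chain assembly and secretion, 3 were higher after saline and 5 after sepsis, with Jchain at log2 fold changes of 4.53 and 3.68 and Mzb1, an endoplasmic reticulum chaperone of B cells, at 5.39 and 5.99. The recombination genes gave no call. Rag1 was at 0 to 4.77 CPM in 11 libraries and at 63.3 CPM in spleen sepsis 3, Rag2 was at 21.9 CPM there, and Dntt was at 0 in all 12. Of the surrogate light chain genes, Vpreb3 was called after both treatments, while Vpreb1 was not called and Igll1 and Vpreb2 were too low to be tested.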

How the data were processed

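RNA of 300 sorted cells per library was amplified by the authors (SMART-Seq HT) and made into Nextera XT libraries. The deposited table holds raw counts of reads per gene, whole numbers that the authors did not normalize, for 55536 genes in 12 libraries. The submitters' processing notes name STAR 2.7.2b, R 3.6.1, DESeq2 1.26 and GRCm38, with no role, and how reads matching several segments were counted is not given in the sources used here. Such counting could move counts between near copies.

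All identifiers were found in GENCODE M21 on GRCm38, which gave biotypes, positions, exon lengths and sequences. Identity between segments was computed on spliced transcripts. The members, the gene lists and the tests were chosen with earlier results of these data known. Named segments were the 2 most used of each library and, in each comparison, up to 5 in each direction with the smallest p among those called.

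Counts were fitted in R 4.3.3 with edgeR 4.0.16 (filterByExpr with a minimum count of 10, TMM factors, 1 mean per group, 8 residual degrees of freedom, quasi-likelihood test, Benjamini-Hochberg adjusted p under 0.05 over 20263 genes), and the fit was tested on simulated data. CPM use the TMM factors. SEs were obtained as the absolute log2 fold change over the root of its F value. The biological coefficient of variation was 143%, so the spread between libraries, and not depth, set the precision. Alternatives used limma 3.58.1, DESeq2 1.42.0, other scalings and filters, a replicate block, and leaving out each library or the near copies. Usage, diversity and likeness were computed in Python 3.11.15 with pandas 2.3.3 and numpy 2.4.6, without a test, because a score over chosen members allows none. Figures were drawn with matplotlib 3.10.9. No sample was left out. Some genes of the study are not reported here.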

Additional observations from a re-analysis of the deposited data

How the results depend on the processing

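Tissue differences kept their direction under most settings, while the number of calls did not. Without a filter on low counts (98 segments tested), 44 segments were higher and 2 lower in spleen after saline and 56 higher after sepsis. Among all genes these numbers were 299, 230 and 370. Between treatments, 35 segments were called in BM and 33 in spleen, and the interaction called 35. All genes then gave 26 higher and 55 lower in BM, 78 and 109 in spleen, and 59 and 71 in the interaction. With at least 10 counts in 6 libraries (48 tested), 11 were higher after saline. DESeq2 called 26 higher after saline, against 805 of all genes. It called 5 between treatments in BM, 11 in spleen and 11 in the interaction. Limma-voom called 4 higher after saline and 19 after sepsis, against 141 and 488 of all genes. Scaling with DESeq2's size factors gave a median over all genes of 0.54 after saline and library size alone -0.20, beside 0.28. With the replicate block, 13 were called after saline, 35 after sepsis and 1 between treatments in spleen. Deviations of same-numbered libraries from their group means had correlations of -0.0566 to 0.0447 over 18 pairs. With pools of 300 cells and 3 libraries per group, these correlations cannot show whether the samples were paired.

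Leaving out 1 library at a time, where the filter let 83 to 87 segments through, gave 20 to 35 higher and 0 to 1 lower after saline, 33 to 49 higher after sepsis, 0 to 4 calls between treatments in BM, 2 to 17 in spleen and 1 to 15 in the interaction. The saline count exceeded 1.5 times its value without BM saline 2 (29) or 3 (27), any BM sepsis library (35 each) or spleen sepsis 1 (34), 2 (32) or 3 (26), and the sepsis count without BM saline 3 (49). Among named segments the direction turned after saline for Igkv6-15 (3.23 with limma-voom, and -5.03 to 8.25 over the libraries left out, the last without BM saline 1), Igkv9-120 (-1.49 with the replicate block, and -3.02 to 8.21, negative without BM saline 2 or spleen saline 2), Igkv3-10 (-6.47 to 4.44, positive without BM saline 2) and Igkv4-86 (-3.21 to 6.32, negative without spleen saline 3). After sepsis it turned for Igkv14-100 (-3.39 to 10.8, negative without spleen sepsis 2), Igkv14-111 (-3.69 to 4.22, negative without spleen sepsis 1), Igkv3-7 (-0.57 to 3.07, negative without spleen sepsis 1) and Igkv8-24 (-1.87 to 2.31, negative without spleen sepsis 2). Of the values whose direction turned, that of Igkv6-15 without BM saline 1 passed the threshold, and those of Igkv9-120 without BM saline 3 (8.21, edgeR adjusted p = 0.00416) and Igkv14-100 without BM sepsis 3 (10.8, 0.000398) passed it in the direction given with all libraries. The cause of these changes was not tested.

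The group means of the effective number ranged from 2.06 to 3.61 in BM saline, 2.48 to 3.87 in BM sepsis, 10.5 to 13.3 in spleen saline and 15.8 to 23.8 in spleen sepsis when 1 library was left out, and those of the leading usage from 60.2% to 86.5%, 45.1% to 56.6%, 16.7% to 21.8% and 13.9% to 17.2%. The means of segments with at least 10 counts ranged over 35 to 45, 20.5 to 25.5, 58.5 to 65 and 61 to 74, those of the Igkv share of counts over 0.367% to 0.865%, 0.275% to 0.445%, 6.05% to 6.13% and 2.24% to 4.89%, and those of the summed CPM over 3228 to 7196, 2378 to 3947, 69817 to 79831 and 31118 to 66125. Without the segments at least 95% identical to another, the mean effective number was 6.16, 5.00 and 9.85 in BM saline, spleen saline and spleen sepsis. This reversed the order of the tissue means after saline. The segments left out included the leaders of BM saline 2 and 3 and of spleen saline 1. The leading usage was then 78.9%, 40.3% and 22.0% in BM sepsis, spleen saline and spleen sepsis. Without the 2 most used segments, the effective number was 22.7 in BM saline and 17.8 in BM sepsis, and the leading usage 15.3% and 17.6%. Segments with any count numbered 69, 51.3, 77.3 and 81.7, and 53.8, 38.1 and 51.0 were expected at the lowest Igkv total in the first 3 groups. Library size alone gave 60948 CPM in spleen saline.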

Other observations

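Heavy chain variable segments (Ighv), which are joined in the same cells by the same enzymes, were also held by few genes in several libraries. The most counted Ighv gene took 90.8%, 71.7% and 73.9% of Ighv counts in BM saline, 55.2%, 45.9% and 41.5% in BM sepsis, 48.6%, 31.0% and 29.3% in spleen saline and 27.1%, 36.2% and 52.3% in spleen sepsis. BM saline 1, the library with the highest Igkv dominance, was also the highest here, and spleen sepsis 3, the lowest in Igkv dominance, was at 52.3%. That library had 0.641 Ighv counts per 100 heavy chain constant counts, against 2.13 to 17.1 in the other 11 libraries. The 60 Igkv pseudogenes made up between 0.0226% and 0.993% of the combined counts of segments and pseudogenes in a library. These values are given without a test.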
